A study of Mus musculus with 11 samples.

Results

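A set of 10 genes of the hepatic acute phase response and its STAT3 signal was followed through mouse liver development. They are the serum amyloid A genes Saa1, Saa2 and Saa3, the orosomucoid genes Orm1 and Orm2, the pentraxin genes Crp and Apcs, Itih4, and the signalling genes Stat3 and Socs3. They were taken by name from the gene column of the arrays, where 12 probes carried 10 of the 27962 gene names, and all 10 genes passed the filter on dim probes. The filter asked that a probe be well above background in the liver channel on all arrays of at least 1 stage. For each of the 10 genes the brightest probe was well above background on all 11 arrays, so no gene entered through 1 stage alone.

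RNA of normal mouse liver at embryonic day 14 (E14, 3 arrays), embryonic day 18 (E18, 3 arrays), postnatal day 5 (P5, 2 arrays, numbered replicates 2 and 3) and postnatal day 56 (P56, 3 arrays) was labelled with Cy5. A common reference, RNA of normal adult mouse liver sold commercially, was labelled with Cy3 and hybridized to every array, and no dyes were swapped. The labels give no treatment, genotype or strain for these samples, and they call each array a biological replicate without saying how many livers it pooled, so p-values measure the spread between these samples. The source label is liver, while the cell type label reads hepatoblasts at E14, immature hepatocytes at E18 and hepatocytes at P5 and P56, and the methods speak both of whole livers and of cells isolated from fetal livers. Markers of other cells were present on the arrays: all 8 erythroid, all 9 neutrophil and myeloid and all 7 macrophage markers were well above background on every array of E14, E18 and P5. In such bulk RNA, fewer cells of a type and less RNA per cell cannot be told apart.

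Acute phase proteins are plasma proteins that the liver makes in larger or smaller amounts during inflammation. In the textbook account, interleukin-6 binds its receptor and the shared subunit gp130, Janus kinases phosphorylate STAT3, and STAT3 enters the nucleus and turns on target genes, while interleukin-1 and tumor necrosis factor act through NF-kB and C/EBP factors. SOCS3, itself made from a STAT3 target gene, binds the receptor complex and shuts the signal off. In mice the serum amyloid A proteins, orosomucoid and serum amyloid P (the product of Apcs) respond strongly, while C-reactive protein, a major responder in humans, responds weakly.

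The probes of Saa1, Saa3, Orm1 and Orm2 are shown because their families have similar members side by side on 1 chromosome, and because the 2 Saa1 probes did not give the same result. Each is 60 bases long, written 5′ to 3′ in the sense of the probe, and capitals mark the longest run of at least 8 bases that it shares with another probe of its family.
Saa1, tested probe: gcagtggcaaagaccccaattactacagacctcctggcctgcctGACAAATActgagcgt
Saa1, other probe: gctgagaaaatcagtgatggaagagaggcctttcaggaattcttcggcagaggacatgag
Saa3: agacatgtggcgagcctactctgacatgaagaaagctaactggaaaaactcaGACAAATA
Orm1: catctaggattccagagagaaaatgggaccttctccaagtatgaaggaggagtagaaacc
Orm2: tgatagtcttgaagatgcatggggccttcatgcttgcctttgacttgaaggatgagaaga

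On the mouse build mm7, which the array files use, the tested Saa1 probe lies on the minus strand at chr7:42916901-42916960 and the Saa3 probe at chr7:42888862-42888921, 27979 bases apart. The Saa2 probe lies on the plus strand at chr7:42930366-42930425, 13405 bases from the tested Saa1 probe. The other Saa1 probe covers 473 bases of the genome, chr7:42916998-42917470, and the Orm1 probe 608 bases, chr4:62779145-62779752, so both cross a gap that their 60 bases do not fill. The Orm2 probe lies at chr4:62797641-62797700, 17888 bases from that of Orm1. The longest run shared by any 2 of the 4 serum amyloid A probes was 8 bases, and by the 2 orosomucoid probes 7 bases. Best ungapped alignments of at least 30 bases matched at 31.0% to 39.6% of positions among the serum amyloid A probes and at 42.9% between the orosomucoid probes. The 2 probes of the same gene, Saa1, matched at 31.7%, so these shares do not measure how alike the family members are. Whether a transcript of 1 family member also hybridizes to the probe of another was not tested.

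The Crp and Apcs probes lie 196957 bases apart on chromosome 1. Itih4 is on chromosome 14, and Stat3 and Socs3 are both on chromosome 11. The tested Stat3 probe was printed as 10 spots, which were averaged, and every other probe as 1 spot. A second Stat3 probe, at chr11:100994187-100994246, was not well above background on any of the 11 arrays, with Cy5 signals of 39.1 to 46.2, and was not tested.

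Promoter sequence was examined because C/EBP and STAT factors are the textbook regulators of these genes. RefSeq sequence on GRCm38.p6 was given for 9 of the 10 genes, all but Orm1. In the 250 bases before each start, the letters TTGCNNAA (a C/EBP-type motif, both strands) were found in 4 of the 9 genes (Saa1, Saa2, Saa3 and Orm2), against 9.56% of 32851 windows of that length. The letters TTCNNNGAA (a STAT-type motif that reads alike on both strands) were found in 3 of the 9, Apcs, Itih4 and Socs3, against 7.02% of windows. An NF-kB-type motif (3 G, 2 free bases, 3 T and 2 C, both strands) was found in 0 of the 9 and in 1.41% of windows. These matches are descriptions of sequence in a short window. The C/EBP-type match, in capitals, began at position -182 from the start of Saa1, -183 of Saa2, -99 of Saa3 and -120 of Orm2. The windows are chr7:46742981-46743230 (minus strand) for Saa1, chr7:46751583-46751832 (plus) for Saa2, chr7:46715677-46715926 (minus) for Saa3 and chr4:63362199-63362448 (plus) for Orm2.
Saa1: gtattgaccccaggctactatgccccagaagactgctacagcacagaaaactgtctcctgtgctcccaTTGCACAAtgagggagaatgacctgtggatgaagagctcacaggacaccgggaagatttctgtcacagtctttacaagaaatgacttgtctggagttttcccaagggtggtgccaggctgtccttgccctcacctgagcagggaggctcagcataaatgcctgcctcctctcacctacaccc
Saa2: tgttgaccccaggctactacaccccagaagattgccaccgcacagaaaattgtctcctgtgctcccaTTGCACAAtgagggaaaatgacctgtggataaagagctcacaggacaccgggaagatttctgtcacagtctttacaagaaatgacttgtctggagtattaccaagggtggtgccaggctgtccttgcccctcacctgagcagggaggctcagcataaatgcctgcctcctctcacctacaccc
Saa3: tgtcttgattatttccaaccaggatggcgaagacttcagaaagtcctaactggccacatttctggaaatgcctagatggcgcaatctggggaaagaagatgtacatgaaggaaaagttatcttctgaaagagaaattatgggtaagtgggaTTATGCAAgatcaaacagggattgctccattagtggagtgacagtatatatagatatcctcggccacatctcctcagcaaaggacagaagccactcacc
Orm2: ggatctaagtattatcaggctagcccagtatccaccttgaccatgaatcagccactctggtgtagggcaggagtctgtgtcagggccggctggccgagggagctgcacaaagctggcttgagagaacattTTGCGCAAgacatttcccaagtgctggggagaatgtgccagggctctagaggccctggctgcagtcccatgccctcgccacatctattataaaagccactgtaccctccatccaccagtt

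The windows of Saa1 and Saa2 were 94.8% identical over an alignment of 251 positions, while those of Saa1 and Saa3 were 50.2% identical.

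Each value below is a normalized log2 ratio of liver over the adult reference, where 1 unit is a 2-fold difference. After loess normalization, 0 is the ratio of the bulk of genes of like brightness on the array. Because dyes were not swapped, a single ratio also holds any dye bias of its probe, which cancels in differences between stages. All 10 genes were below 0 on every array with a value, against 16.2% of the 16704 genes tested. At E14 the 10 stage means ran from -5.10 (Orm1) to -1.19 (Socs3), with a median of -2.76, and the median of all genes was -0.02. The median of the 10 was -1.63 at E18, -1.80 at P5 and -1.60 in the adult. At P56, where adult liver was set against adult liver, 9 of the 10 means lay below -1, against 5.68% of all genes.

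**Figure D1:**
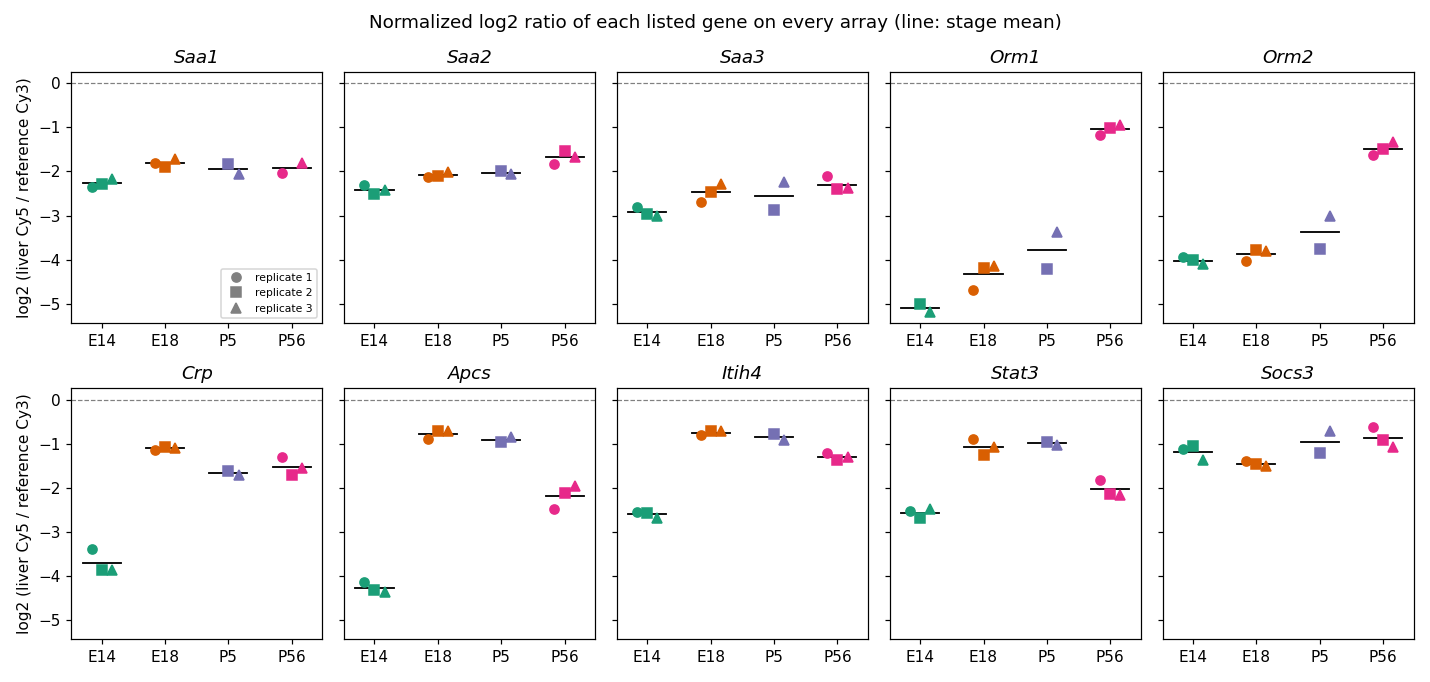
Normalized log2 ratio of liver (Cy5) over the adult liver reference (Cy3) for the 10 genes. Each point is 1 array, shapes mark replicate numbers, and lines are stage means. The dashed line at 0 is the ratio of the bulk of genes after loess normalization. Orm1 and Orm2 rise between P5 and P56, to means of -1.05 and -1.49, while Apcs, Itih4 and Stat3 are highest at E18 and P5.

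Across the 4 comparisons of stages the 10 genes did not move as 1 group. From E14 to E18, 8 of the 10 were higher and 0 lower at a limma adjusted p under 0.05, against 24.5% of all genes higher and 22.9% lower, and the median change was 0.61 against -0.01 for all genes. The arrays of the 2 stages did not overlap for 9 of the 10, against 62.4% of all genes. By an unadjusted p under 0.05 the same counts were 8 and 0, and by the methods' t-test after adjustment 6 and 0. From E18 to P5, 0 were higher and 1 (Crp) lower, against 7.31% and 6.38% of all genes, and 3 did not overlap, against 44%. By an unadjusted p under 0.05, limma had 3 higher and 1 lower and the methods' t-test 0 and 1, and the methods' t-test called 0 after adjustment. At P56 against P5, 3 were higher and 3 lower, against 21% and 24.7% of all genes, and 6 did not overlap, against 61.3%. The methods' t-test had 2 higher and 3 lower by an unadjusted p under 0.05 and called 0 in each direction after adjustment. Between E14 and P56, 9 were higher and 0 lower, against 36.2% and 34.7%, with 0 lower also by an unadjusted p under 0.05 and by the methods' t-test, and 9 did not overlap, against 75.7%. A comparison of P56 with E18, added after the data were seen, had 4 higher and 4 lower, against 31.3% and 33.5%, and 8 that did not overlap, against 70.3%. These comparisons share arrays, so they are not independent of each other.

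**Figure D2:**
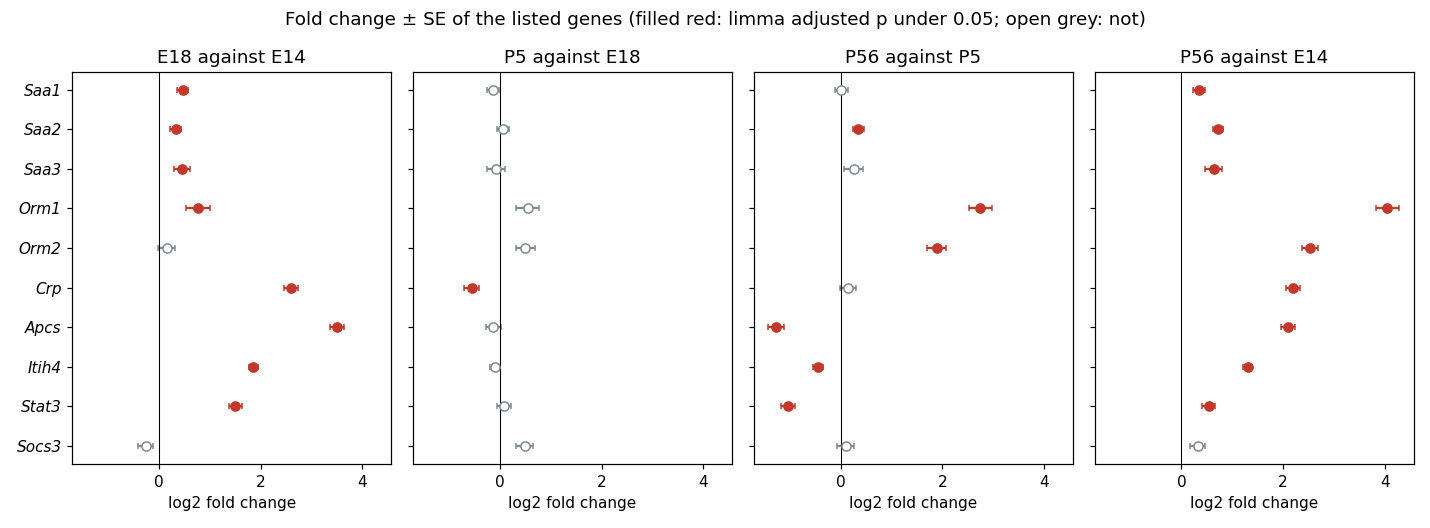
Log2 fold change with its standard error from limma for each gene in the 4 comparisons; filled red points passed an adjusted p of 0.05 and open grey points did not. Crp, Apcs, Itih4 and Stat3 lie at 1.50 or above for E18 against E14, and Orm1 and Orm2 at 2.74 and 1.89 for P56 against P5.

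The rise from E14 to E18 held in each of 26 alternative analyses for Crp, Apcs, Itih4 and Stat3, and in fewer for the other 4 genes called. Some of the 26 could not change these fold changes, such as leaving out a P5 or P56 array. Saa1 kept its call in 23 of the 26, Saa2 in 19, Orm1 in 16 and Saa3 in 15. The exchange of the Saa1 probe, given below, was not among the 26, and with it the Saa1 call was lost. The count of 8 fell to 5 without E14 replicate 2, without E14 replicate 3 or without E18 replicate 3, and to 4 when the Cy5 channel was used alone, with median centring, or in the authors' gene table. For P56 against E14 the count of 9 fell to 6 with median centring, where Saa1, Saa3 and Stat3 lost their calls. Without background subtraction it was 10. Another centring also moved the whole scale at P56. Median centring in place of loess shifted the median of all genes by -0.47 for P56 against P5 and took the share of higher calls from 46% to 6.87%. For P56 against E14 the shift was -0.33 and the share went from 51% to 22.9%, and for P56 against E18 they were -0.42 and 48.3% to 15%. Values given relative to these shifts are named as such below.

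Markers of blood cells moved with the stages. From E14 to E18, 9 of 9 neutrophil and myeloid markers were higher (median 3.21). Their summed Cy5 signal was 15821 to 19998 per array at E14 and 117111 to 121388 at E18. This sum and those below were taken after background correction and quantile normalization between arrays, so they are not raw spot signals. All 7 macrophage markers were higher as well, by a median of 1.69, with sums of 5910 to 7965 and 20267 to 24948. Between P5 and P56 all 9 neutrophil and myeloid markers were lower, with sums of 1679.6 to 2261 at P56, where Ela2, Mmp8, Ngp and Prtn3 were not detected on all arrays. All 8 erythroid markers were lower too, from sums of 178708 and 179746 at P5 to 50202 to 62880 at P56. Of 6 hepatocyte markers 5 were higher at E18, with sums of 88621 to 95407 at E14 and 161462 to 170093 at E18. At P56 against P5, 2 of the 6 were higher and 3 lower, with sums of 146215 and 150488 at P5 and 57434 to 97129 at P56. From E14 to E18, 24.5% of all genes were higher and 22.9% lower, and from P5 to P56, 21% and 24.7%. The part of these shifts in the results on the 10 genes was not tested.

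Apcs, which encodes the serum amyloid P component, a pentraxin of plasma, had the largest rise of the 10 genes from E14 to E18. Its log2 ratios were -4.13, -4.33 and -4.37 at E14, -0.90, -0.71 and -0.72 at E18, -0.97 and -0.85 at P5, and -2.48, -2.11 and -1.95 at P56. All arrays of E18 and P5 lay above all of P56, and these above all of E14. The rise to E18 was 3.50 ± 0.13 (SE), an 11.3-fold difference (limma adjusted p = 4.58e-09). The difference between P5 and E18 did not pass the threshold (-0.13 ± 0.15, adjusted p = 0.597), and P56 was lower than P5 by 2.42-fold (-1.27 ± 0.15, adjusted p = 3.61e-05). P56 still lay 4.27-fold above E14 (2.09 ± 0.13, adjusted p = 4.81e-08). The order of stage levels was thus E14, P56, then P5 and E18, of which the last 2 lay within their spread.

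Crp, which encodes C-reactive protein, the other pentraxin, was higher at E18 than at E14 as well and, unlike Apcs, was not called lower at P56 than at P5. The difference between the 2 pentraxin genes was not tested. Its log2 ratios were -3.40, -3.86 and -3.86 at E14, -1.15, -1.08 and -1.10 at E18, -1.63 and -1.70 at P5, and -1.30, -1.70 and -1.56 at P56. At E14 its spots were dim, at Cy5 signals of 78.3 to 90.3, though well above background. E14 lay below all other arrays, and the P5 and P56 arrays overlapped and lay below all E18 arrays. E18 was 6.05-fold above E14 (2.60 ± 0.14, adjusted p = 4.24e-08) and P56 was 4.56-fold above E14 (2.19 ± 0.14, adjusted p = 4.38e-08). The sizes depended on the processing of these dim spots, with 3.73 for E18 and 3.03 for P56 from the scanner software's processed signals and 3.68 and 3.13 in the authors' table. Crp was the 1 listed gene called between E18 and P5, lower by 1.47-fold (-0.56 ± 0.15, adjusted p = 0.0339), while P56 against P5 was not called (0.15 ± 0.15, adjusted p = 0.467). The fall from E18 to P5 was between -0.81 and -0.47 in every one of 25 alternatives but passed the threshold in 14. It was lost when any single E18 or P5 array was left out, with -0.58 (adjusted p = 0.0669) without E18 replicate 1, -0.54 (0.0916) without E18 replicate 2, -0.55 (0.0907) without E18 replicate 3, -0.59 (0.0514) without P5 replicate 2 and -0.52 (0.174) without P5 replicate 3.

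Itih4, which encodes a heavy chain of the inter-alpha-trypsin inhibitor family, a plasma protein, had the tightest replicates of the 10 genes. Its log2 ratios were -2.54, -2.57 and -2.68 at E14, -0.81, -0.72 and -0.71 at E18, -0.78 and -0.91 at P5, and -1.21, -1.36 and -1.30 at P56. Its 3 E14 arrays lay lowest, the E18 and P5 arrays overlapped at the top, and P56 lay between. E18 was 3.60-fold above E14 (1.85 ± 0.09, adjusted p = 2.27e-08), and P5 against E18 was not called (-0.10 ± 0.10, adjusted p = 0.562). P56 was 1.36-fold below P5 (-0.45 ± 0.10, adjusted p = 0.00304), but in the Cy5 channel alone this difference was 0.00 ± 0.12 and the call was lost.

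The orosomucoid genes took a different course, with their main rise between P5 and P56. Orm1, which encodes alpha-1-acid glycoprotein, a plasma carrier of drugs and lipids, had log2 ratios of -5.02 and -5.18 at E14 (replicates 2 and 3), -4.69, -4.18 and -4.14 at E18, -4.20 and -3.38 at P5, and -1.16, -1.02 and -0.95 at P56. Its spot on E14 replicate 1 was marked by the scanner software and left out, and the fit used the other 2 arrays. All 3 P56 arrays lay more than 2 units above every earlier array. P56 was 6.70-fold above P5 (2.74 ± 0.23, adjusted p = 5.11e-06), 9.78-fold above E18 (3.29 ± 0.20, adjusted p = 2.24e-07) and 16.6-fold above E14 (4.05 ± 0.23, adjusted p = 4.54e-08). E18 was called higher than E14 (0.76 ± 0.23, adjusted p = 0.0180), but this rested on leaving out the marked spot. That spot had a Cy5 signal of 2063 against 410 and 313 on the other E14 arrays, and with it the difference was -0.11 ± 0.55 (adjusted p = 0.888). With it P56 lay above E14 by 3.18 ± 0.55 (adjusted p = 0.000256), and in the authors' table by 3.43. The call for E18 against E14 was also lost without E14 replicate 2 (0.85, adjusted p = 0.0520), E14 replicate 3 (0.68, 0.104), E18 replicate 2 (0.69, 0.0612) or E18 replicate 3 (0.66, 0.0662).

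Orm2, which encodes a close relative of alpha-1-acid glycoprotein, had log2 ratios of -3.95, -4.02 and -4.09 at E14, -4.03, -3.77 and -3.81 at E18, -3.75 and -2.999 at P5, and -1.63, -1.50 and -1.34 at P56. Arrays of E14 and E18 overlapped, and P56 lay above all others. E18 against E14 was not called (0.15 ± 0.16, adjusted p = 0.498), and P56 was 3.70-fold above P5 (1.89 ± 0.18, adjusted p = 8.95e-06) and 5.22-fold above E18 (2.38 ± 0.16, adjusted p = 2.26e-07). P5 replicate 3 lay above P5 replicate 2 by 0.83 for Orm1 and 0.75 for Orm2. Without P5 replicate 2, P5 was called higher than E18 for Orm1 (0.96, adjusted p = 0.00901) and Orm2 (0.87, adjusted p = 0.00256), and without P5 replicate 3 neither was called (0.13 and 0.12). The rise from P5 to P56 passed the limma test in 25 of 26 alternatives for each gene and was lost with the methods' t-test (adjusted p = 0.0608 for Orm1 and 0.0775 for Orm2). Orm3, named here for its family, was 1.72-fold higher at P56 than at P5 (0.79, adjusted p = 0.00303).

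The serum amyloid A genes, whose products are apolipoproteins carried on high density lipoprotein, changed little in comparison. The tested Saa1 probe had log2 ratios of -2.36, -2.28 and -2.17 at E14, -1.82, -1.90 and -1.71 at E18, -1.83 and -2.05 at P5, and -2.04 and -1.81 at P56 (replicates 1 and 3, since the spot on replicate 2 was marked and left out). The E14 arrays lay below all others, and the other 3 stages overlapped. E18 was 1.38-fold above E14 (0.46 ± 0.11, adjusted p = 0.00473) and P56 was 1.27-fold above E14 (0.34 ± 0.12, adjusted p = 0.0252). The latter call was lost without E14 replicate 1 (0.30, adjusted p = 0.0780), E14 replicate 2 (0.34, 0.0571) or P56 replicate 3 (0.23, 0.201), and also in the Cy5 channel alone (0.07, 0.578), with median centring (0.22, 0.148), in the authors' table (0.47, 0.0502) and with the methods' t-test (0.34, 0.0803). The other Saa1 probe had ratios of -2.59, -2.76 and -2.92 at E14, -2.78, -2.58 and -2.42 at E18, -2.45 and -2.15 at P5, and -2.12, -2.30 and -2.23 at P56. With this probe in place of the tested one, E18 against E14 was not called (0.17 ± 0.13, adjusted p = 0.315), and P56 was higher than E18 (0.38 ± 0.13, adjusted p = 0.0211), where the tested probe gave -0.12 ± 0.12. The probes of Saa1 thus disagreed on the stage of the rise. When each probe was tested by itself, the other probe was higher at P56 than at E14 by 0.54 ± 0.13 (adjusted p = 0.00227).

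Saa2, the neighbour of Saa1, had log2 ratios of -2.30, -2.51 and -2.42 at E14, -2.13, -2.11 and -2.02 at E18, -1.99 and -2.07 at P5, and -1.84, -1.54 and -1.67 at P56. E14 lay lowest and P56 highest, with E18 and P5 overlapping between them. E18 was 1.25-fold above E14 (0.32 ± 0.10, adjusted p = 0.0189), P56 was 1.27-fold above P5 (0.35 ± 0.11, adjusted p = 0.0230), and P56 was 1.66-fold above E14 (0.73 ± 0.10, adjusted p = 3.65e-05). The call for P56 against P5 was lost without P5 replicate 2 (0.39, adjusted p = 0.0638), P5 replicate 3 (0.31, 0.0877), P56 replicate 2 (0.28, 0.0679) or P56 replicate 3 (0.34, 0.0537). The call for E18 against E14 was lost without E14 replicate 2 (0.27, adjusted p = 0.0781), E14 replicate 3 (0.32, 0.0522) or E18 replicate 3 (0.29, 0.0725).

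Saa3, which in mice is made in macrophages and fat as well as in liver, had log2 ratios of -2.81, -2.96 and -3.02 at E14, -2.69, -2.46 and -2.28 at E18, -2.87 and -2.24 at P5, and -2.11, -2.39 and -2.38 at P56. E14 lay below E18 and P56, and the 2 P5 arrays lay far apart, replicate 2 at the level of E14 and replicate 3 above all E18 arrays. P56 was 1.55-fold above E14 (0.63 ± 0.16, adjusted p = 0.00401), and E18 was 1.37-fold above E14 (0.45 ± 0.16, adjusted p = 0.0366), a call that was lost in 11 of 26 alternatives. Among these it was lost without E14 replicate 2 (0.44, adjusted p = 0.0942), E14 replicate 3 (0.41, 0.109), E18 replicate 2 (0.44, 0.0898) or E18 replicate 3 (0.35, 0.145). P56 against P5 was not called (0.25 ± 0.18, adjusted p = 0.274), but was called higher without P5 replicate 3 (0.57, adjusted p = 0.0186).

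The reference spots of Saa1 and Saa2 were often saturated. The Cy3 spot of the tested Saa1 probe and of Saa2 was saturated on 8 of 11 arrays, and that of the other Saa1 probe on 7, while no Cy5 spot of any of these probes was saturated. On those arrays the ratio is therefore an upper bound. The Cy3 signal ran from 55333 to 65535 for the tested Saa1 probe, and the Cy5 signal from 9158 to 20375. In the Cy5 channel alone, quantile-normalized between arrays, E18 against E14 was 0.04 ± 0.10 for Saa1 and -0.17 ± 0.13 for Saa2, and neither was called, while P56 against E14 was 0.39 for Saa2 and still called, and 0.07 ± 0.11 for Saa1 (adjusted p = 0.578) and no longer called. Saa3 and the other 7 genes had no saturated spot in either channel. In the Cy5 channel alone Saa3 (0.24, limma adjusted p = 0.179) and Orm1 (0.44, 0.213) also lost their calls for E18 against E14. Crp, Apcs, Itih4 and Stat3 kept theirs. The part of saturation in the differences of Saa1 and Saa2 was not tested.

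**Figure D3:**
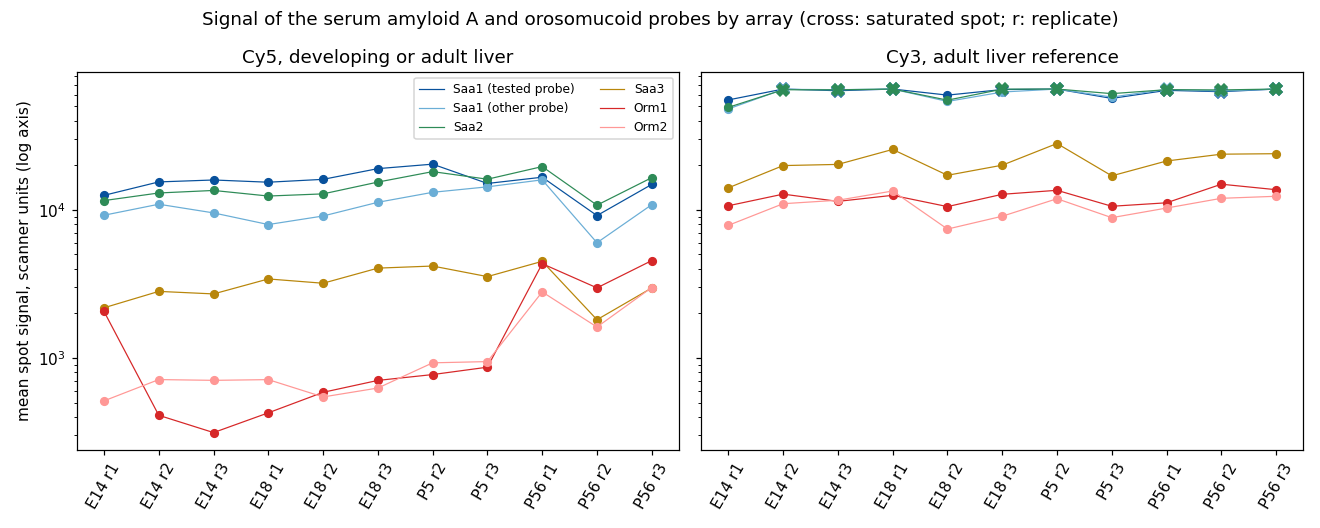
Mean spot signal in scanner units (log axis) by array for the 4 serum amyloid A and 2 orosomucoid probes, liver channel on the left and adult reference on the right; crosses are saturated spots. The Cy3 spots of Saa1 and Saa2 reach the scanner limit of 65535, and the Cy5 signal of Orm1 rises from 313 on E14 replicate 3 to 4547 on P56 replicate 3, with the marked spot of E14 replicate 1 standing at 2063.

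Stat3, the transcription factor of the interleukin-6 signal, was highest at E18 and P5, as Apcs and Itih4 were. Its log2 ratios were -2.54, -2.69 and -2.49 at E14, -0.89, -1.25 and -1.07 at E18, -0.96 and -1.02 at P5, and -1.81, -2.14 and -2.16 at P56. Arrays of E18 and P5 overlapped and lay above all P56 arrays, which lay above all E14 arrays. E18 was 2.83-fold above E14 (1.50 ± 0.12, adjusted p = 1.39e-06), P5 against E18 was not called (0.08 ± 0.14, adjusted p = 0.751), and P56 was 2.06-fold below P5 (-1.04 ± 0.14, adjusted p = 8.47e-05). P56 was 1.45-fold above E14 (0.53 ± 0.12, adjusted p = 0.00195). With median centring this last difference was -0.24 and not called, and relative to the shift of all genes it was 0.08.

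Socs3, the feedback inhibitor of the STAT3 signal, passed the test in none of the 4 comparisons. Its log2 ratios were -1.12, -1.06 and -1.38 at E14, -1.39, -1.47 and -1.52 at E18, -1.22 and -0.72 at P5, and -0.61, -0.92 and -1.08 at P56. E18 lay just below E14, and E14, P5 and P56 overlapped. The differences were -0.27 ± 0.15 (adjusted p = 0.171) for E18 against E14, 0.48 ± 0.17 (0.0815) for P5 against E18, 0.10 ± 0.17 (0.654) for P56 against P5 and 0.32 ± 0.15 (0.0794) for P56 against E14. P5 was called higher than E18 without P5 replicate 2 (0.73, adjusted p = 0.0147) or P56 replicate 1 (0.48, 0.0468), and P56 higher than E14 without either P5 array (0.32, 0.0422) or P56 replicate 3 (0.42, 0.0417). Socs3 was also called lower at E18 than at E14 in the Cy5 channel alone (-0.45, adjusted p = 0.0233), lower at P56 than at P5 with median centring (-0.75, 0.0299) and higher at P56 than at E14 without background subtraction (0.37, 0.0359). In the added comparison P56 was 1.50-fold above E18 (0.59 ± 0.15, adjusted p = 0.00503), though with median centring the value was -0.18, or 0.24 relative to the shift of all genes. Stat3 and Socs3 went in opposite directions in that comparison, where Stat3 was lower by 1.95-fold (-0.97 ± 0.12, adjusted p = 2.73e-05). The difference between the 2 genes was not tested.

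The arrays of E14 and of E18 replicate 1 shared 1 scan, and those of P5 replicate 3 and P56 another. Within the first, E18 replicate 1 lay above the mean of the E14 arrays by 3.37 for Apcs, 2.56 for Crp, 1.78 for Itih4, 1.68 for Stat3, 0.45 for Saa1, 0.41 for Orm1, 0.28 for Saa2 and 0.24 for Saa3, and Orm2 and Socs3 differed by -0.01 and -0.20. With scan as a fixed block, 5 of the 8 calls passed the threshold, and those of Saa2, Saa3 and Orm1 did not (adjusted p = 0.175, 0.279 and 0.0609). Within the other scan, P56 lay above P5 replicate 3 by 2.33 for Orm1, 1.51 for Orm2 and 0.39 for Saa2, and below it by -1.33 for Apcs, -1.02 for Stat3 and -0.38 for Itih4. With scan as a fixed block the call of Saa2 was lost there (0.39, adjusted p = 0.0756), which left 2 of the 3 genes called higher. Crp, Saa1, Saa3 and Socs3 differed by 0.18, 0.12, -0.06 and -0.15. The comparisons of P5 with E18, of P56 with E14 and of P56 with E18 had no scan in common, so scan and stage cannot be told apart in them.

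To see whether the 10 genes stood together above or below their stage in any single sample, each array was set against the other arrays of its stage. The median deviation of the 10 genes lay between -0.13 (E14 replicate 3) and 0.11 (E14 replicate 1), and no array had all 10 genes above the others. E14 replicate 1 had 8 of 9 genes above, with Crp by 0.46, and E18 replicate 3 had 8 of 10, with Orm1 by 0.30. The gene without a value on E14 replicate 1 was Orm1, whose marked spot was left out. In the authors' table the Orm1 ratio was -2.60 on that array, against -5.27 and -5.61 on the other E14 arrays. Among the values kept, the widest gaps were at P5, where all genes also spread most. The standard deviation of the deviations of all genes was 0.38 at P5 and 0.15 to 0.34 on the other arrays. Each P5 array was set against a single array, those of other stages against a mean. At P5, replicate 3 lay above replicate 2 by 0.83 for Orm1, 0.75 for Orm2, 0.63 for Saa3 and 0.50 for Socs3. Saa1, Saa2, Crp, Itih4 and Stat3 were lower on replicate 3. At P56, replicate 1 had the highest Socs3 (by 0.39) and the lowest Apcs (by -0.45). With 2 or 3 arrays per stage no test of single arrays was made.

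**Figure D4:**
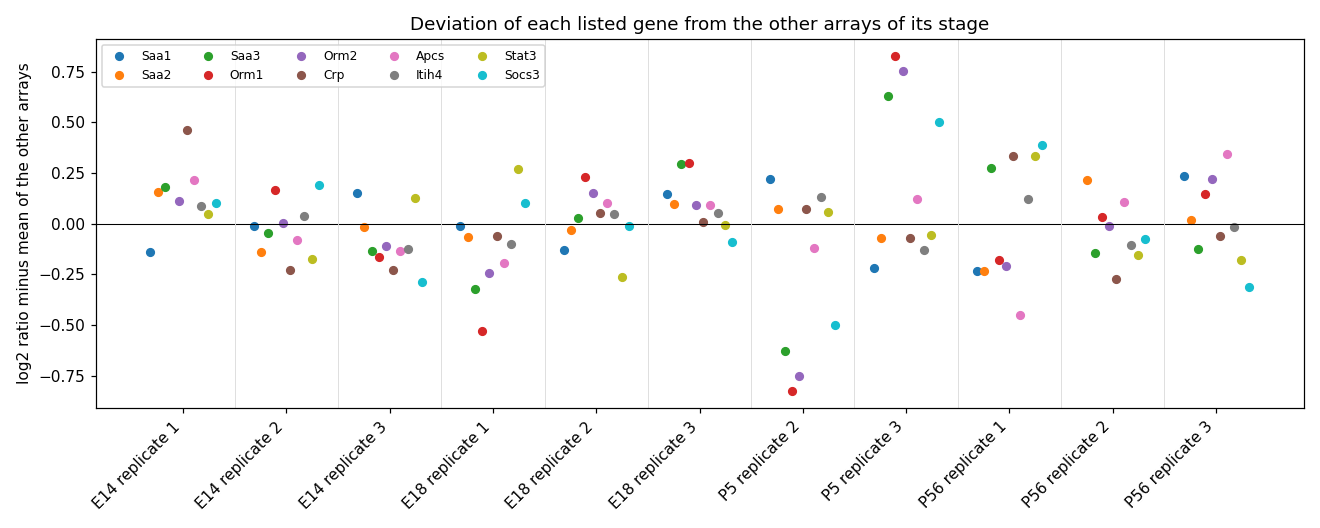
Log2 ratio of each gene on each array minus the mean of the other arrays of its stage; each column is 1 array and each colour 1 gene, and the 2 P5 columns mirror each other because there are 2 arrays. The genes scatter on both sides of 0 on every array, with the widest deviations, from -0.83 to 0.83, at P5. All genes of the array also spread most there, with a standard deviation of 0.38. The marked Orm1 spot of E14 replicate 1 is not plotted.

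Other genes of the response were counted in lists. Of 21 other positive acute phase genes tested, 18 were higher at E18 than at E14 and 3 were not called. Of all genes 24.5% were higher, and the list median was 1.68 against -0.01 for all genes. They included the fibrinogen chains Fgg and Fga (4.50 ± 0.23, adjusted p = 3.23e-08). The E18 spots of Fgg were saturated, and it was at least 15.0-fold higher in the Cy5 channel. Its adjusted p of 6.92e-09 is that of the limma fit to the ratio. At P56 against P5, 4 of the 21 were higher and 11 lower, against 21% and 24.7% of all genes, with a median of -0.65 against -0.02. Hamp1 (hepcidin, the hormone of iron balance) was 8.72-fold higher. Saa4, a serum amyloid A gene counted in this list though not induced in inflammation, was 5.48-fold higher. Mt2 (a metallothionein) was 9.83-fold lower and Itih3, a relative of Itih4, 8.84-fold lower, both against a P5 stage with 1 saturated spot each. Among the 10 genes the same comparison had Orm1 and Orm2 with the higher group and Apcs, Itih4 and Stat3 with the lower.

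The 8 negative acute phase genes encode plasma proteins that fall in inflammation. Of these genes 7 were higher at E18 and 1 lower, against 24.5% and 22.9% of all genes, with a median of 2.78. Trf (transferrin) was at least 6.45-fold higher in the Cy5 channel, with saturated spots at E18. Ahsg (fetuin) was higher by a size that is not given. Of its spots, 2 of 3 at E18 and 5 of 11 in the reference were saturated. Serpina6, which encodes corticosteroid-binding globulin, was lower by 6.09-fold. Of the 8, 2 were higher at P56 than at P5, Serpina6 (1.45 ± 0.20) and Ttr (transthyretin, 0.63 ± 0.12), and 4 were lower. The shares of all genes were 21% higher and 24.7% lower. Thus genes of both lists, positive and negative in inflammation, were mostly higher at E18 than at E14.

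Il6, the ligand of the pathway, was not well above background on any E14 array, so it passed the filter on dim probes through a later stage. Its P5 value was 1.50-fold above E18 (0.59 ± 0.14, adjusted p = 0.0179), while P56 against P5 was not called (0.20 ± 0.14, adjusted p = 0.265). Il6st, which encodes gp130, was higher at E18 than at E14 (1.17 ± 0.11, adjusted p = 6.11e-06) and lower at P56 than at P5 (-0.38 ± 0.13, adjusted p = 0.0305), as Stat3 was. Il6ra, the receptor chain that binds interleukin-6, was not called in either comparison (0.17 ± 0.13 and 0.29 ± 0.14). These 3 genes are named for their roles. In all, 8 of 19 tested genes of the interleukin-6 family and its JAK and STAT partners were higher at E18 and 1 lower, against 24.5% and 22.9% of all genes, with a median of 0.31. Socs2, another inhibitor of the SOCS family, rose by 2.28 ± 0.21 (adjusted p = 3.75e-06) and Lifr, the receptor of leukemia inhibitory factor, by 1.67 ± 0.21 (adjusted p = 4.93e-05), while the kinase gene Jak2 fell by 0.30 (adjusted p = 0.0334). Between P5 and P56, 4 of the 19 were higher and 7 lower, against 21% and 24.7% of all genes, with a median of 0.14. Lifr rose by 1.53 ± 0.24 and Il11ra1, a receptor chain for interleukin-11, by 1.19 ± 0.20, while Jak1 fell by 1.19 and Socs2 by 1.06. Of 9 transcription factor and kinase genes that respond to STAT3, 6 were higher at E18 and 1 lower. The shares of all genes were 24.5% and 22.9%, and the list median was 1.52. Egr1 rose by 2.17 ± 0.19 and Junb by 1.74 ± 0.16, both immediate early genes, and Myc fell by 0.54. At P56 against P5, 3 of the 9 were higher and 3 lower, against 21% and 24.7% of all genes. Cebpb (C/EBP beta) was up by 1.53 ± 0.12 and Myc by 0.59 ± 0.15, and Egr1 stood at -2.25 and Junb at -0.72.

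In the interleukin-1, tumor necrosis factor and NF-kB list, 7 of 14 genes were higher at E18 than at E14, against 24.5% of all genes, and 7 were not called, with a median of 0.49. Il1rap, a subunit of the interleukin-1 receptor, rose by 2.19 ± 0.20 and Nfkbia, the NF-kB inhibitor, by 1.36 ± 0.16. At P56 against P5, 1 of the 14 was higher (Il1rap, 1.15 ± 0.22) and 3 lower, with a median of -0.08 and shares no larger than those of all genes (21% and 24.7%). The lower ones included Il1r1 (-0.87 ± 0.13) and Icam1 (-0.53 ± 0.18). Of 6 liver transcription factors that act on acute phase promoters, 5 were higher at E18 and 1 was not called, against 24.5% of all genes higher. Cebpa (C/EBP alpha) was up by 2.31 ± 0.15 and Foxa2 by 1.70 ± 0.15. Hnf4a was the 1 of the 6 called at P56 against P5 (0.45 ± 0.12), where 21% of all genes were higher and 24.7% lower. The neutrophil, macrophage and hepatocyte markers given above moved between E14 and E18 as these lists did, and their part was not tested.

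**Figure D5:**
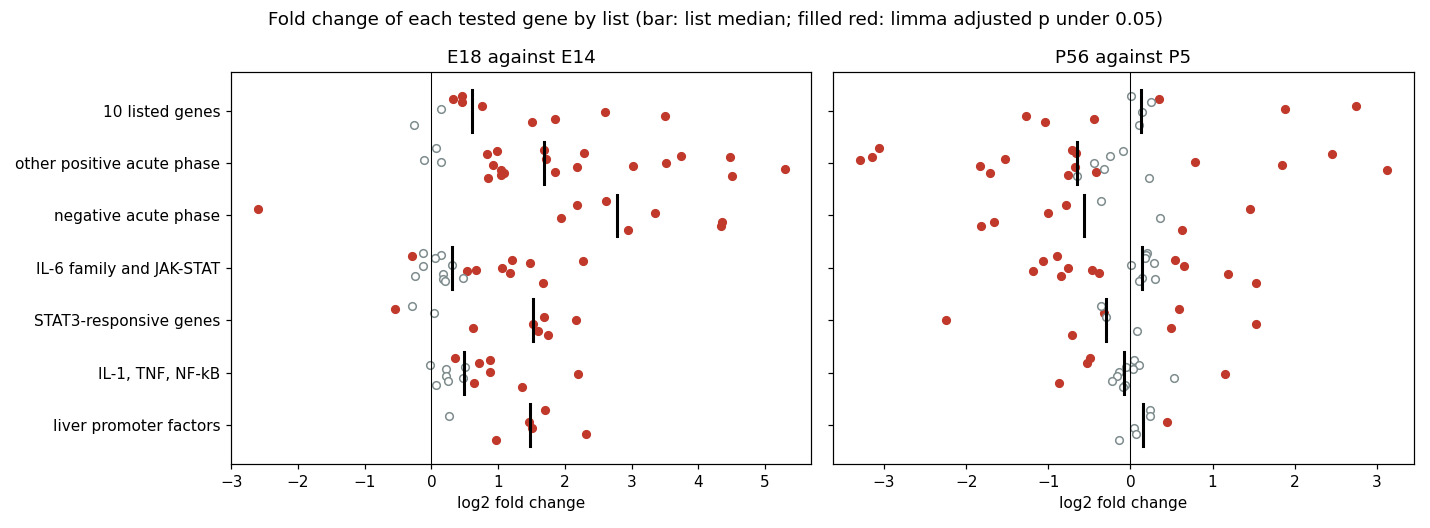
Log2 fold change of every tested gene in each list for E18 against E14 (left) and P56 against P5 (right); each point is 1 gene, filled red points passed a limma adjusted p of 0.05, and black bars are list medians. On the left 18 of 21 other positive and 7 of 8 negative acute phase genes are called higher, against 24.5% of all genes. On the right the points lie on both sides of 0.

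The genes whose log2 ratio was most like each member over the 11 arrays were found by Pearson's r, given as a description, since the arrays fall into stages and share the reference. A missing value was set to the mean of the other arrays of its stage. Among the members this was done for Orm1 on E14 replicate 1 and Saa1 on P56 replicate 2. For Crp they were Klkb1 (plasma prekallikrein, r = 0.999), Fmo1 (0.995) and Cebpa (0.994). For Orm1 they were 1110032A03Rik (0.996), Saa4 (0.995) and Sar1b (0.994), and for Orm2 Plekhb1, Adh4 (both 0.997) and Cyp2r1 (0.995). For Itih4 they were F10 (coagulation factor X, 0.997), Enpp2 (0.996) and Ppara (0.994), for Apcs BC006779 (0.993), Slc40a1 (ferroportin, 0.991) and Abca8a (0.990), and for Stat3 Unc84b, now named Sun2 (0.987), Hadhb (0.985) and Itih3 (0.982). The genes with small changes had looser likenesses, namely Onecut1 (0.945), Nfe2l1 (0.936) and Stat2 (0.930) for Saa1, and 2810055F11Rik, now L3hypdh (0.977), TC1519646 (0.977) and H2-T10 (0.976) for Saa2. For Saa3 they were Anxa11 (0.953), Dlgh3, now Dlg3 (0.947), and BC034204, now Nlrx1 (0.946), and for Socs3 Alkbh2 (0.927), Olfr1341 (0.927) and Zfp30 (0.920).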

How the data were processed

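The authors deposited the spot intensity of each channel as read by Feature Extraction 9.5.1.1, beside a local background and quality marks and not yet scaled between arrays. A gene table that they deposited holds log2 ratios (liver over reference) after lowess normalization, and served here as an alternative only. Each column of that table correlated with the ratios computed here at r = 0.815 to 0.931 across genes. From the intensities, background was corrected by normexp (offset 50), and each array's log2(Cy5/Cy3) was loess-normalized, so that ratios compare probes within an array to the bulk of genes. Marked spots, 177 to 356 per array, and control spots were left out. Genes with a value missing on at most 1 array of a stage were kept, each read from its brightest probe. Each array held 43379 spots without controls, of which 16790 (P56 replicate 2) to 25718 were well above background in Cy5, and the number of arrays limits the precision.

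Stages were compared by a limma fit (3.58.1, R 4.3.3) to the 11 arrays together, tested on simulated data first, and p-values were adjusted by Benjamini-Hochberg across 16704 genes. Names are those of the array design, with RefSeq symbols of GRCm38.p6 where they differ. Coordinates of probes are mm7, and those of promoter windows are GRCm38.p6. All 10 genes and their probes are named, with up to 4 genes per list and comparison, the 2 largest rises and the 2 largest falls among called genes without overlap, and the 3 genes most like each member. Genes, lists and tests were chosen with earlier results of these data known. The comparison of P56 with E18 and the exchange of the Saa1 probe were added after seeing the data. Alternatives were other background corrections, normalizations, filters and probe choices, the Cy5 channel alone, the authors' table, blocks for replicate number or scan, leaving out each array, and the methods' t-test (Student's, on the same values). Plots used matplotlib 3.10.9 (Python 3.11.15).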

Additional observations from a re-analysis of the deposited data

How the results depend on the processing

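Of 770 values of single genes under alternatives other than leaving out an array, 683 kept both sign and call, and of 550 values with 1 array left out, 507 did. Part of this was fixed in advance. Scaling between arrays left the fold changes as they were, as did a mean over probes for genes with 1 tested probe. The exchange of the Saa1 probe left those of the other genes, and leaving out an array of neither stage compared left all of them. Causes were not tested. The 10 genes rest on 1 probe each, with saturated reference spots for Saa1 and Saa2 and dim E14 spots for Crp, and P5 rests on 2 arrays. Scan as a fixed block could be fitted for E18 against E14 and P56 against P5 alone.

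With median centring, listed genes called higher at E18 against E14 numbered 4, genes called in all for P5 against E18 1476 with 0 listed genes lower, and listed genes lower at P56 against P5 numbered 5. Fold changes that then turned were, for P5 against E18, Saa1 0.26, Saa3 0.19, Apcs 0.028 and Itih4 0.047, and for P56 against P5, Saa1 -0.20, Saa2 -0.032, Saa3 -0.31, Crp -0.75 and Socs3 -0.75, of which the last 2 were called. Relative to the shift of all genes these 5 were 0.27, 0.44, 0.16, -0.28 and -0.28, so the first 3 kept their sign. For P56 against E14 they were Stat3 -0.24 and Socs3 -0.50, and for P56 against E18, Saa1 0.063, Saa3 -0.12 and Socs3 -0.18. With the scanner software's processed signals, P5 against E18 had 1429 genes called and 0 listed genes lower, with Saa1 at 0.0062 and Stat3 at -0.011, Saa1 turned to -0.12 for P56 against P5, and 2 listed genes were higher at P56 against E18. In the Cy5 channel alone, 4 listed genes were higher and 1 (Socs3) lower at E18, Saa2 (-0.17) and Orm2 (-0.30) turned, Saa3 (0.067) and Stat3 (-0.0026) stood near 0 for P5 against E18, Itih4 was 0.0014 for P56 against P5, and P56 against E18 had 2 listed genes lower and Saa1 at 0.032. In the authors' table, E18 against E14 had 4798 genes called and 4 listed genes higher, P5 against E18 had 292 and 0 lower, and P56 against P5 had 5040, with Saa1 at 0.10, -0.027 and, for P56 against E18, 0.073. With the mean over probes Saa1 was 0.080, -0.013 and 0.067 in those comparisons, with its other probe 0.29 for P5 against E18 and 0.38 for P56 against E18, and without background subtraction -0.019 for P56 against P5. With marked spots kept, Orm1 was -0.11 for E18 against E14.

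With scan as a fixed block, 5 listed genes were higher at E18 and Orm2 was -0.013, and P56 against P5 had 4688 genes called, Saa3 at -0.060 and Socs3 at -0.15. With scan as a random block 0 listed genes were lower at P5. The methods' t-test called 57 genes for P5 against E18 (0 listed genes lower) and 303 for P56 against P5 (0 listed genes higher and 0 lower). Samples with the same replicate number did not deviate together (median r = -0.03 over 15 pairs), and with the replicate block 0 listed genes were lower at P5, with Crp at -0.47 (adjusted p = 0.0626), while no other call of the 10 genes in any comparison was lost. Leaving out each array gave 5 to 8 listed genes higher at E18. For P5 against E18 it gave 0 to 3 higher (3 without P5 replicate 2), 0 to 1 lower, 931 genes in all without P5 replicate 3 to 3764 without P5 replicate 2, Stat3 -0.010 to 0.17 and Saa3 -0.39 to 0.24. For P56 against P5 it gave 4734 to 8215 genes (4734 without P5 replicate 2), Saa1 -0.10 to 0.13, Saa3 -0.060 to 0.57 and Socs3 -0.15 to 0.35.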
